A study of Mus musculus with 12 samples.

Results

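Transcripts of the urea cycle and of amino acid breakdown were followed in whole mouse liver. The members are a named list of 40 genes, kept where the deposited value was at least 10 in at least 3 of the 12 libraries. All 40 met that rule, out of 13871 genes that met it among the 47263 in the table. They fall into 9 groups by pathway: 7 urea cycle genes, 2 of glutamine and glutamate, 6 of histidine and serine, 5 of tyrosine, 4 of tryptophan, 6 of methionine and transsulfuration, 3 transaminases, 4 of proline, glyoxylate and glycine, and 3 of lysine and branched chain breakdown.

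The study asked what Sirt2, an NAD-dependent deacetylase, contributes to liver cancer driven by oncogenes. Livers were wild type (WT) or carried a hepatocyte-specific knockout of Sirt2 (KO), by a Cre driver not given in the sources used here. Mice were injected at 6 to 8 weeks of age, by hydrodynamic tail vein injection, which forces plasmid DNA into hepatocytes, and livers were collected 8 weeks later. The MET/CAT groups received pT3-EF1a-c-MET and pT3-EF1a-DN90-β-Catenin, which express the receptor tyrosine kinase MET and an N-terminally truncated β-catenin, together with HSB2, a sleeping beauty transposase. The GFP groups are the plasmid control. Both plasmid sets were given to both genotypes, which makes 4 groups of 3 libraries. The groups follow the sample titles. A second label, on treatment, names GFP for all WT libraries and MET/CAT for all KO libraries and so contradicts the titles of 2 groups (KO GFP and WT MET/CAT), and every plasmid comparison rests on the titles being right. Nothing in the labels says that replicates are separate mice, so a p-value here measures the spread between libraries, which may be technical.

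Amino acid breakdown releases ammonia, which hepatocytes turn into urea through carbamoyl phosphate, citrulline, argininosuccinate and arginine. Transaminases and dehydrogenases move nitrogen into this cycle, and dedicated pathways for tyrosine, tryptophan, histidine, methionine, glycine and the branched chain amino acids feed the carbon skeletons into general metabolism. In the liver lobule the urea cycle is strongest near the portal vein, while hepatocytes around the central vein, where β-catenin signalling is active, capture the remaining ammonia with glutamine synthetase.

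The libraries held 18208879 to 24352961 reads, recovered from the deposited values, and 1 read was worth 0.753 to 1.204 normalized units. Sirt2 was 824, 924 and 726 in WT GFP against 233, 183 and 126 in KO GFP, and 1068, 943 and 908 in WT MET/CAT against 248, 234 and 201 in KO MET/CAT. Every KO library was below every WT library. None of 9 hepatocyte markers was at 0 in any library. KO GFP replicate 3 stood apart, with a score of −88.95 on the leading principal component (21.97% of variance) where the others had −33.2 to 52.8. It also had the strongest correlation of exon length with each gene's deviation from its mean over the 12 libraries. There the Spearman rho was 0.435 across genes, against −0.334 to 0.173 in the others. The summed level of 13 Kupffer cell and macrophage markers was 1925 to 6108 in KO GFP and 8542 to 12720 in the other 9 libraries. The 8 neutrophil markers summed to 65.5 to 186 in the GFP libraries and to 317 to 3085 in the MET/CAT libraries, with Cxcr2 and Mmp8 each at 0 in 5 of the 6 GFP libraries and above 0 in every MET/CAT library.

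Per kilobase of exon, the members were abundant in WT GFP liver. Gnmt, which passes methyl groups from S-adenosylmethionine to glycine, led with 70916 ± 10706 normalized reads per kilobase (SD, n = 3), followed by Ass1 with 33881 ± 1096 and Hpd with 30496 ± 4027. Then came Mat1a (12824 ± 238), Arg1 (11911 ± 2153) and Fah (10461 ± 2456), whose neighbouring means lay within the SD of Arg1 and Fah. The lowest 4 were Bckdha (509 ± 15.2), Amt (296 ± 115), Kynu (272 ± 23.1) and Gldc (202 ± 60.3). All 40 lay between the 78.2 and 99.9 percentiles of the tested genes on this scale. Together the members took 3.21% ± 0.191 (SD, n = 3) of the normalized reads in WT GFP, 2.85% ± 0.398 in KO GFP, 3.18% ± 0.237 in WT MET/CAT and 2.99% ± 0.296 in KO MET/CAT, and these ranges overlapped. By library, 14 members were lowest in KO GFP replicate 3, 9 in KO GFP replicate 2 and 7 in KO MET/CAT replicate 2, and 18 were highest in WT MET/CAT replicate 1. In whole liver RNA, fewer hepatocytes and less RNA per hepatocyte cannot be told apart.

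**Figure D1:**
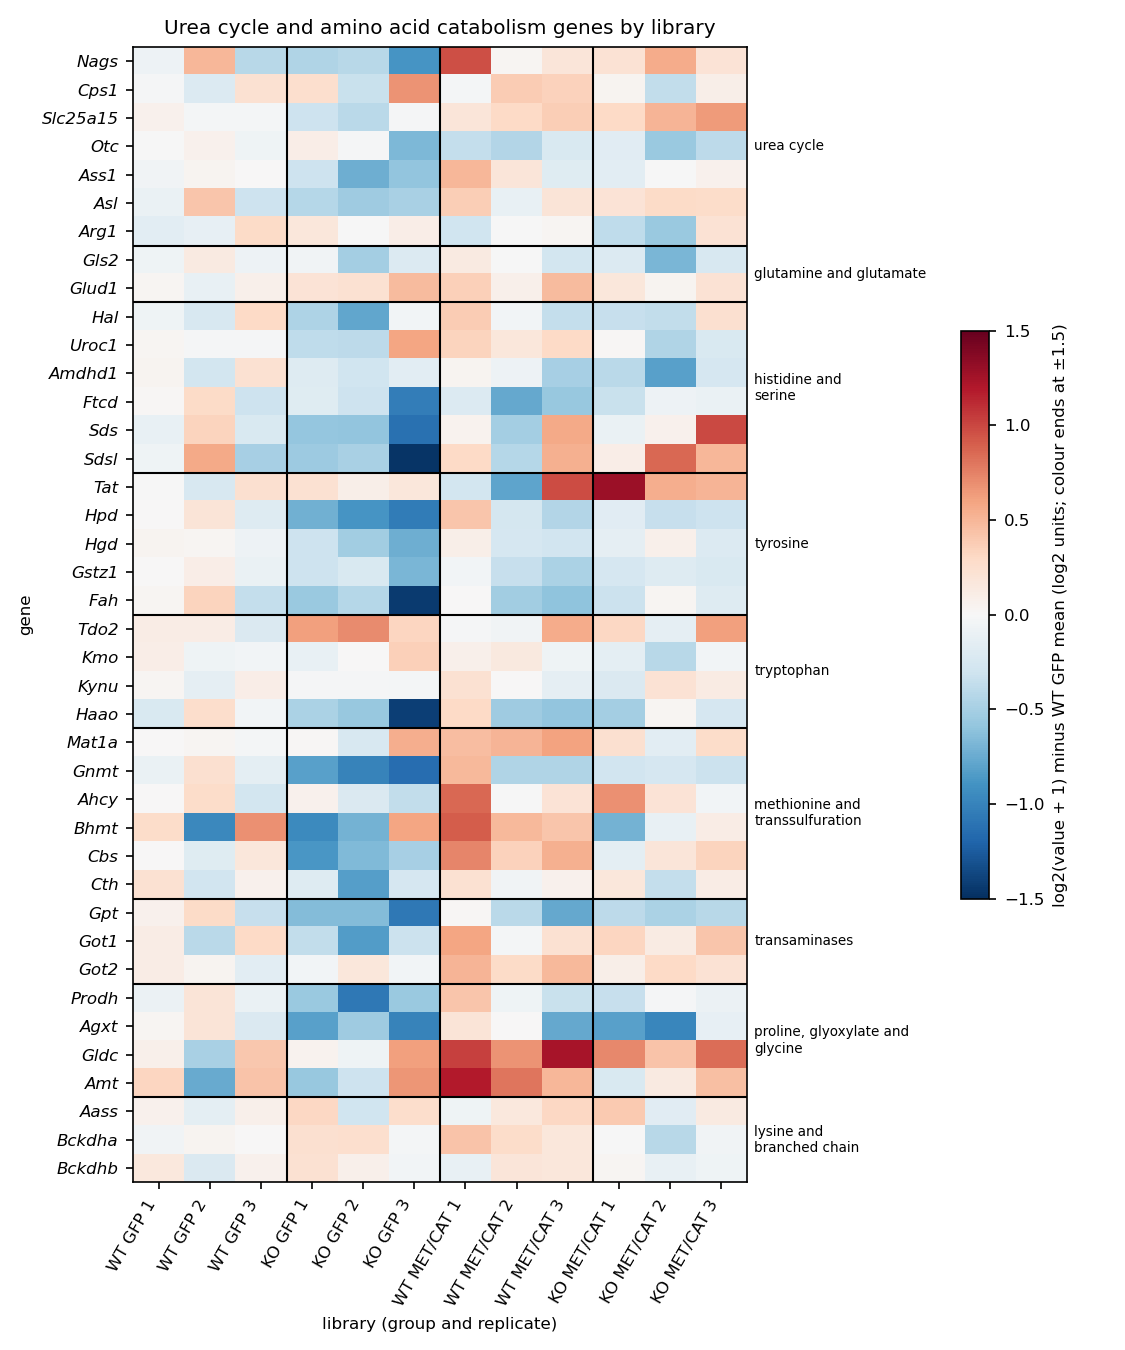
Difference of log2(value + 1) from the WT GFP mean (colour, log2 units) for the 40 members (rows, by pathway group) in the 12 libraries (columns). The members' median difference is −0.31, −0.40 and −0.23 in the KO GFP columns and 0.27 in WT MET/CAT replicate 1, where 18 members are at their highest. That library also has the highest normalized total.

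The first question was what the oncogene plasmids changed. Averaged over the genotypes, 3 of the 40 members rose with MET/CAT and none fell, against 3.8% of all genes called in either direction. They are Cbs, the enzyme that condenses homocysteine with serine into cystathionine, Slc25a15, the carrier that exchanges ornithine for citrulline across the inner mitochondrial membrane, and Gldc, the glycine-binding subunit of the glycine cleavage system. Here and below, called means that limma gave an adjusted p (Benjamini-Hochberg, over all genes tested) below 0.05.

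Cbs (ENSMUSG00000024039.15, chromosome 17, 31608894 to 31637238, minus strand, GRCm38) had normalized values of 11115, 9769 and 12442 in WT GFP, 6023, 7004 and 7837 in KO GFP, 18399, 14090 and 16027 in WT MET/CAT, and 9948, 12526 and 13883 in KO MET/CAT. In both genotypes each MET/CAT library lay above each GFP library. KO GFP was the lowest group and WT MET/CAT the highest. The averaged log2 fold change was 0.67 (SE 0.14), a 1.59-fold increase, with a limma adjusted p of 0.0180. Taken alone, WT livers gave 0.54 (adjusted p = 0.227) and KO livers 0.80 (adjusted p = 0.0680). The call was lost without WT GFP replicate 1 (limma adjusted p = 0.0525), without KO GFP replicate 1 (0.0551), after quantile normalization (0.0923) and with equal library totals (0.0743), at log2 fold changes of 0.50 to 0.67.

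Slc25a15 (ENSMUSG00000031482.9, chromosome 8, 22375551 to 22398597, minus strand) had values of 6564, 6139 and 6126 in WT GFP, 5069.9, 4753 and 6174 in KO GFP, 7099.9, 7689 and 8116 in WT MET/CAT, and 7718, 8910.3 and 9777 in KO MET/CAT. All 6 MET/CAT libraries exceeded all 6 GFP libraries, the only member of which this was true. For comparison, 1.61% of tested genes separated in this way upward and 0.872% downward. The averaged log2 fold change was 0.50 (SE 0.12), or 1.42-fold (limma adjusted p = 0.0336). It was 0.73 in KO (adjusted p = 0.0539) and 0.28 in WT (adjusted p = 0.469).

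Gldc (ENSMUSG00000024827.10, chromosome 19, 30098447 to 30175429, minus strand) had values of 1262, 849.9 and 1582 in WT GFP, 1239, 1139 and 1832 in KO GFP, 2424, 1909.7 and 2814 in WT MET/CAT, and 1960.4, 1609 and 2139.9 in KO MET/CAT. The WT groups did not overlap, whereas in KO the highest GFP library, replicate 3, exceeded the lowest MET/CAT library. Its averaged log2 fold change was 0.72 (SE 0.18), or 1.65-fold (limma adjusted p = 0.0405), with 0.98 in WT (adjusted p = 0.104) and 0.46 in KO (adjusted p = 0.321). The calls of Slc25a15 and Gldc each held in only 3 of the 12 fits that left out 1 library, with limma adjusted p of 0.0160 to 0.0861 and of 0.0198 to 0.101. Of these fits, the 1 without KO GFP replicate 3 kept all 3 members called (Cbs 0.71, Slc25a15 0.56 and Gldc 0.82 on the log2 scale), those without WT GFP replicate 1 or KO GFP replicate 1 kept none, and the other 9 kept 1 or 2. Markers of other cells also rose with MET/CAT in this comparison. They were 6 of 7 tested neutrophil markers (S100a8, Mmp8, S100a9, Cxcr2, Retnlg and Csf3r), 2 of 13 Kupffer cell and macrophage markers (Cd14 and Marco, with all 13 higher by value) and 1 of 5 cholangiocyte markers (Sox9, with all 5 higher by value). The 6 listed cholangiocyte markers summed to 186 to 447 in GFP, 398 to 640 in WT MET/CAT and 586 to 1248 in KO MET/CAT, with Cftr at 0 in 8 libraries. The part of these cells in the members' values was not tested.

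**Figure D2:**
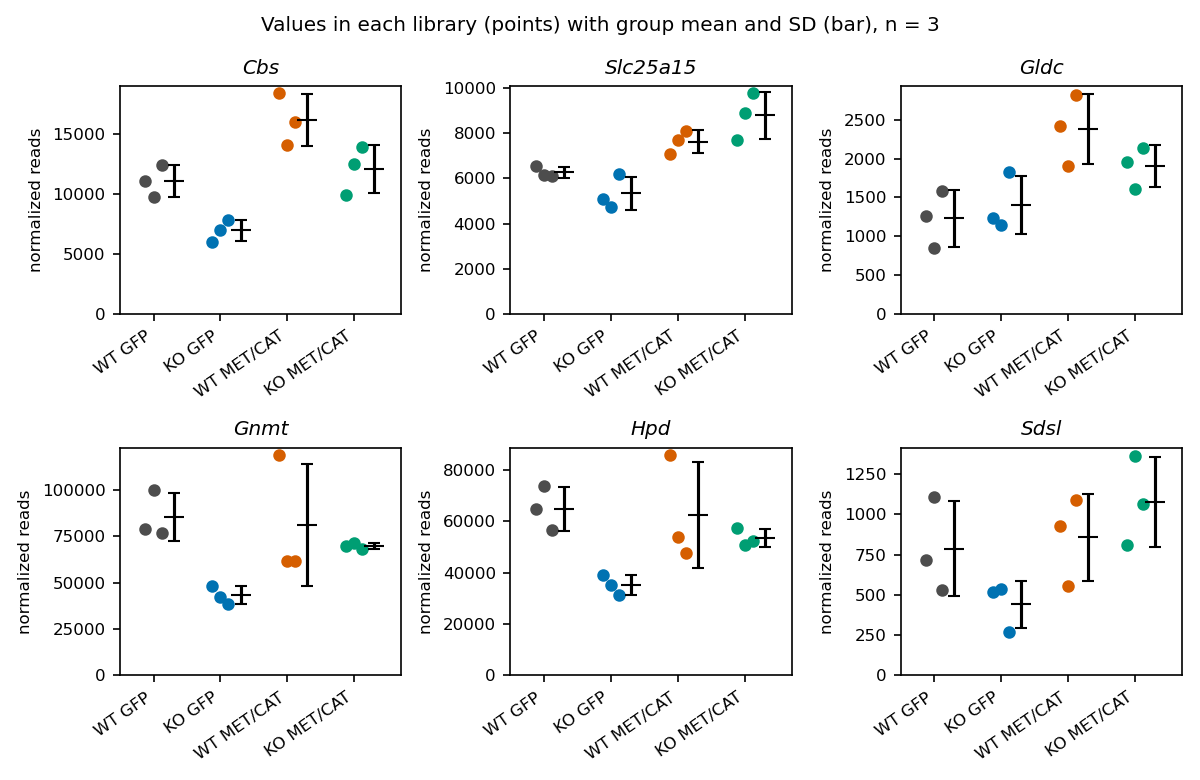
Normalized reads (vertical axes, starting at 0) of 6 members in each library (points, by group) with the group mean and SD (bars, n = 3). Cbs and Slc25a15 are higher in each MET/CAT group than in the GFP group of the same genotype, and Gnmt and Hpd are lowest in KO GFP.

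The upstream sequences of the 3 members that rose are shown because these genes moved together with the plasmids. Each is the 250 bases before the RefSeq start site in GRCm38.p6, 5′ to 3′ on the gene's own (minus) strand, at chr17:31637206-31637455 for Cbs, chr8:22398622-22398871 for Slc25a15 (the first of 2 RefSeq windows) and chr19:30175442-30175691 for Gldc. The GENCODE gene starts 24 bases downstream of the RefSeq start for Slc25a15 and 12 bases downstream for Gldc. For Cbs it starts at 31637238, inside the printed window. The CCAAT box and the GC box nearest the Cbs RefSeq start therefore lie within the GENCODE gene. Capitals mark CCAAT boxes (CCAAT or its complement ATTGG) and GC boxes (GGGCGG or CCGCCC).
Cbs: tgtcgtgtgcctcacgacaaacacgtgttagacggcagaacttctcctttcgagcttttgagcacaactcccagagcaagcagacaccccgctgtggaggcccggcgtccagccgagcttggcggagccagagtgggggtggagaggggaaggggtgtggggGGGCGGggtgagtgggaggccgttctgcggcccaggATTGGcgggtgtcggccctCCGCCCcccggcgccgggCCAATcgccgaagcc
Slc25a15: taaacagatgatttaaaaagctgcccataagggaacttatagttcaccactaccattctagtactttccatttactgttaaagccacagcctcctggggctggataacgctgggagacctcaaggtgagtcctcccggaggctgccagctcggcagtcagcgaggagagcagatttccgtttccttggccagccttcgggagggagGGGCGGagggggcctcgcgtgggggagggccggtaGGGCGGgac
Gldc: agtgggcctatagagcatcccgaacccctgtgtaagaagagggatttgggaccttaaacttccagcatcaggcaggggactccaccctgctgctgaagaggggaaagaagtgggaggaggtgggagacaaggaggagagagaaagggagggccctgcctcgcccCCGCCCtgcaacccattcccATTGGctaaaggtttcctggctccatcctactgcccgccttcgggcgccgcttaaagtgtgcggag
Cbs held 2 CCAAT boxes and 2 GC boxes, Slc25a15 held 2 GC boxes and no CCAAT box, and Gldc held 1 of each. The second Slc25a15 window, not printed, held 5 GC boxes and no CCAAT box. RefSeq windows were matched for 30 of the 40 members (33 windows). On both strands, CCAAT occurred in 48.5% of the members' windows and 33.8% of all 32536 windows, and GGGCGG in 45.5% and 33.0%. The median share of G and C was 55.6% in the members' windows and 52.4% in all. The letters CTTTGA, bound by TCF/LEF factors that work with β-catenin, were in none of the 3 windows printed. They occurred in 8 member windows (Aass, Agxt, Amt, Haao, Hal, Kmo, Nags and Uroc1), 24.2% against 13.9% of all. TTGCNNAA (C/EBP) was in 9.09% of member windows and 9.57% of all, TGTTCT (a core of glucocorticoid receptor sites) in 9.09% and 16.03%, and TGACGTCA (CRE) in none and in 1.56%. TGACG, which overlaps every CRE match, was in 9.09% and 17.9%. These matches describe letters in a window, not binding.

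Across all 40 members, 27 had a higher and 13 a lower averaged value with MET/CAT, with a median log2 fold change of 0.14 beside 0.02 over all genes. An unadjusted p under 0.05 was reached by 9 members, beside 17.9% of all genes. The sign of the median depended on the scaling, since it was −0.0043 after quantile normalization and −0.0199 with equal library totals. Without KO GFP replicate 3 it was 0.22. Equal totals moved the median of all genes to −0.14, and relative to that the members stood at 0.12. After quantile normalization the members stood at 0.02 relative to all genes. On recovered reads edgeR called 1 member, Cbs (4.46% of all genes called), and DESeq2 called 4, Cbs, Gldc, Nags and Slc25a15 (8.22%).

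Within WT livers none of the 40 members was called by limma, beside 0.339% of all genes. An unadjusted p under 0.05 was reached by 4 members (14.8% of all genes). Without KO GFP replicate 3 it was reached by 7, beside 2544 of 13793 genes. edgeR called 0 (0.526%) and DESeq2 called 1, Gldc (4.09%). Values were higher for 25 and lower for 15, with a median of 0.08 beside −0.01 over all genes. The median was −0.0314 with equal library totals, where all genes stood at −0.12. Leaving out WT MET/CAT replicate 1 gave 0.0388, and leaving out replicate 2 of that group gave 0.15. Of the 9 hepatocyte markers, 6 had higher and 3 lower values here, and the 1 called, Trf (transferrin), fell by 2.25 on the log2 scale (limma adjusted p = 0.0473). Their sum, carried by the most abundant of them, was 2972730 to 3635700 in WT MET/CAT against 2312080 to 2417260 in WT GFP. The neutrophil marker Mmp8 rose, and 7 of 7 lymphocyte markers had lower values with none called. The part of these cells in the members' values was not tested. The 3 WT MET/CAT libraries lay above the 3 WT GFP libraries for 9 members, beside 10.5% of all genes, namely Gldc, Cbs, Got2, Amt, Mat1a, Bckdha, Slc25a15, Glud1 and Uroc1. Otc alone lay below, beside 10.3%. Got2, the mitochondrial aspartate aminotransferase (ENSMUSG00000031672.8, chromosome 8, 95864134 to 95888547, minus strand), had values of 11266, 10730.3 and 9279 in WT GFP and 14749, 12673 and 14608 in WT MET/CAT, with 10064, 11655 and 10095 in KO GFP and 11014, 12749.8 and 12091 in KO MET/CAT. The WT groups were separate and the KO groups overlapped. The WT log2 fold change was 0.43 (SE 0.17), limma adjusted p = 0.27.

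Within KO livers the members' values were more often higher, in 29 against 11, with a median of 0.31 beside 0.05 over all genes, and 0.0798 after quantile normalization and 0.0853 with equal library totals (all genes −0.17). None was called by limma, beside 1.25% of all genes, and 12 had an unadjusted p under 0.05 (20.3%). edgeR called 0 (1.46%) and DESeq2 called 6, Asl, Cbs, Got1, Sds, Sdsl and Slc25a15 (6.7%). Without KO GFP replicate 3, limma called 1 member, Slc25a15 (0.84, adjusted p = 0.0458), beside 71 of 13793 genes, with a median of 0.30. Leaving out replicate 1 of WT MET/CAT, which is in neither group compared, also gave 1 call, beside 267 of 13765 genes tested. All 3 KO MET/CAT libraries exceeded all 3 KO GFP libraries for 15 members, beside 14.4% of all genes, and none lay below, beside 10.7%. The Kupffer cell and macrophage markers were also higher in this comparison, 13 of 13 by value with 1 called, Marco (median 1.28). So were 7 of 7 neutrophil markers, with S100a8, S100a9 and Cxcr2 called, and 5 of 5 cholangiocyte and 7 of 7 endothelial markers, with none called. Their part in the members' values was not tested.

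Sdsl, a serine dehydratase-like enzyme (ENSMUSG00000029596.13, chromosome 5, 120458186 to 120472810, minus strand), had values of 716, 1109 and 533 in WT GFP, 516, 534 and 270.3 in KO GFP, 925, 557 and 1088 in WT MET/CAT, and 807, 1361 and 1064 in KO MET/CAT. KO GFP replicate 3 was the lowest of the 12 libraries. KO MET/CAT lay wholly above KO GFP, while the WT groups overlapped. The KO log2 fold change was 1.32 (SE 0.34), limma adjusted p = 0.0761, and 1.003 without KO GFP replicate 3 (adjusted p = 0.234). The WT one was 0.14 (SE 0.34). Its neighbour Sds, serine dehydratase, which makes pyruvate and ammonia from serine, had means of 1509 ± 301 in KO GFP and 3345 ± 1462 in KO MET/CAT (SD, n = 3), a log2 difference of 1.09 (limma adjusted p = 0.101). Its WT means were 2562 ± 543 and 2719 ± 996.

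In the urea cycle the differences ran both ways. Nags makes N-acetylglutamate, the activator of Cps1, and its values differed by 0.39 in WT and 0.91 in KO. Cps1, which forms carbamoyl phosphate from ammonia, differed by 0.23 and −0.28. Otc, which joins carbamoyl phosphate to ornithine, differed by −0.34 and −0.18. Ass1 and Asl, which build and split argininosuccinate, differed by 0.17 and 0.15 in WT and by 0.51 and 0.74 in KO. Arg1, which releases urea, differed by −0.09 and −0.33. Of these 7 genes only Slc25a15 was called, in the averaged comparison. The values of Nags, Slc25a15, Ass1 and Asl were higher in both genotypes and those of Otc and Arg1 lower in both.

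For tyrosine breakdown the 5 values were all lower with MET/CAT in WT and all higher in KO, and none was called. Tat, the first step, differed by −0.03 and 0.62, Hpd by −0.10 and 0.61, Hgd by −0.15 and 0.43, Gstz1 by −0.29 and 0.18, and Fah, the last step, by −0.37 and 0.65. In histidine breakdown, Hal, Uroc1, Amdhd1 and Ftcd had differences of −0.0086, 0.27, −0.18 and −0.51 in WT and of 0.27, −0.16, −0.28 and 0.34 in KO. Of the tryptophan enzymes, Tdo2, the first step, differed by 0.16 and −0.28, Kmo by 0.05 and −0.29, Kynu by 0.03 and 0.07, and Haao by −0.27 and 0.57. No member of these 3 pathways was called.

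Methionine and transsulfuration genes had higher averaged values in 6 of 6 cases, with a median of 0.32, and Cbs was the 1 called. Mat1a, which makes S-adenosylmethionine, differed by 0.52 in WT and 0.01 in KO. Gnmt differed by −0.14 and 0.70, and Ahcy, which hydrolyses S-adenosylhomocysteine, by 0.35 and 0.46. Bhmt, which methylates homocysteine back to methionine, differed by 0.61 and 0.12, and Cth, which splits cystathionine, by 0.08 and 0.40. Amt, a second subunit of the glycine cleavage system beside Gldc, differed by 0.83 in WT (limma adjusted p = 0.301) and 0.19 in KO. Among the transaminases, the alanine enzyme Gpt differed by −0.38 and 0.37 and the cytosolic aspartate enzyme Got1 by 0.26 and 0.80. Prodh, proline dehydrogenase, differed by 0.0069 and 0.57, and Agxt, which detoxifies glyoxylate, by −0.19 and 0.15. The liver glutaminase Gls2 (−0.05 and −0.12), glutamate dehydrogenase Glud1 (0.31 and −0.16), the lysine enzyme Aass (0.14 and 0.02) and Bckdhb, a subunit of the branched chain ketoacid dehydrogenase (0.08 and −0.13), were not called.

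**Figure D3:**
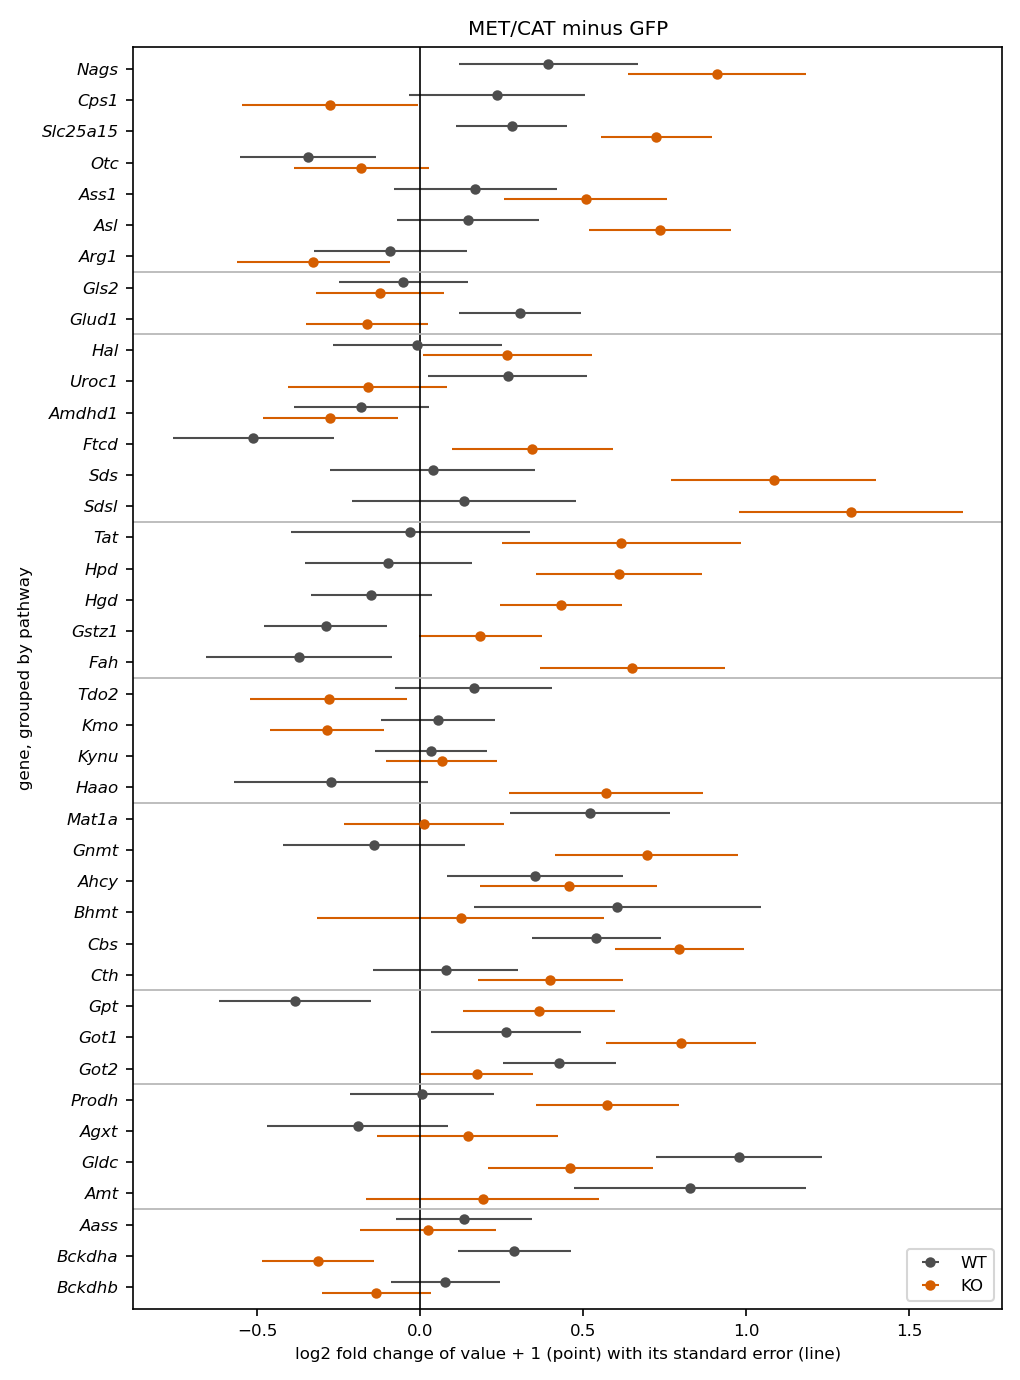
Log2 fold change of value + 1 with MET/CAT against GFP (horizontal axis) for each member (rows, by pathway group), as points with standard errors, in WT and in KO. The 5 tyrosine genes lie left of 0 in WT and right of it in KO, and Sdsl is farthest right at 1.32 in KO.

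The second question was what loss of Sirt2 changed in the absence of oncogenes. No member was called by limma in KO GFP against WT GFP, where 0.00721% of all genes, Sirt2 itself, passed. Values were lower for 28 members and higher for 12, with a median of −0.31 beside −0.07 over all genes, and 16 had an unadjusted p under 0.05 (15.5% of all genes). Without WT GFP replicate 1 that count was 10, beside 1474 of 13777 genes. Without WT GFP replicate 2 it was 9, beside 1018 of 13777. With all 12 libraries the count over all genes was 2155 of 13871. edgeR called 0 members (0.00721%) and DESeq2 called 2, Gnmt and Hpd (0.852%). The same 3 KO GFP libraries enter the comparison of plasmids in KO, so that the 2 sets of differences are not independent.

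Gnmt (ENSMUSG00000002769.9, chromosome 17, 46725664 to 46729168, minus strand) had values of 79203, 100378 and 76993 in WT GFP, 48427, 42544 and 38597 in KO GFP, 119041, 61934 and 61941 in WT MET/CAT, and 69737, 71224 and 67986 in KO MET/CAT. KO GFP lay below all other groups, and WT MET/CAT was spread widely by replicate 1. The log2 fold change was −0.98 (SE 0.28), limma adjusted p = 0.272, and −0.90 without KO GFP replicate 3. Hpd, the dioxygenase of the second step of tyrosine breakdown (ENSMUSG00000029445.13, chromosome 5, 123171807 to 123182727, minus strand), had values of 64623, 73598 and 56464 in WT GFP, 38999, 34963 and 31286 in KO GFP, 85996, 53779 and 47445 in WT MET/CAT, and 57279, 50794 and 52147 in KO MET/CAT. It had the same order of groups, with KO GFP below all others. Its log2 fold change was −0.88 (SE 0.26), limma adjusted p = 0.272, and −0.81 without that library. For Cbs, whose values stand above, it was −0.68 (SE 0.20), limma adjusted p = 0.272, and −0.77 without that library.

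All 3 KO GFP libraries lay below all 3 WT GFP libraries for 13 members, beside 13% of all genes. They were Gnmt, Hpd, Cbs, Gpt, Prodh, Fah, Agxt, Hgd, Haao, Sds, Asl, Ass1 and Gstz1. Tdo2 and Glud1 lay above, beside 9.15% of all genes. Tdo2, tryptophan dioxygenase, averaged 13688 ± 1730.4 in WT GFP and 20006 ± 2694 in KO GFP (SD, n = 3; log2 fold change 0.55). Glud1 averaged 17050.3 ± 1097 and 21109 ± 2235 (0.30). Gpt averaged 14568 ± 3127 and 8355 ± 1343 (−0.79), and Prodh 7107 ± 835 and 4339 ± 834 (−0.72). Haao, which forms the precursor of quinolinate, averaged 19609.6 ± 3415 and 11477 ± 3636 (−0.82).

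By pathway, values were lower in 5 of 7 urea cycle genes (median −0.24), 6 of 6 histidine and serine genes (−0.47), 4 of 5 tyrosine genes (−0.52) and 5 of 6 methionine and transsulfuration genes (−0.39). So were 2 of 3 transaminases (−0.51) and 3 of 4 proline, glyoxylate and glycine genes (−0.40). The 4 tryptophan genes had 2 higher and 2 lower (median 0.03), and the 2 glutamine and glutamate genes 1 of each (0.03). The 3 lysine and branched chain genes had higher values (median 0.09). Cps1 differed by 0.20, Arg1 by 0.09, Otc by −0.20, Nags by −0.58 and Slc25a15 by −0.24. Cps1 was at its highest of the 12 libraries in KO GFP replicate 3. In that library 14 other members, and the normalized total, were at their lowest.

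Exon length moved with these differences. The members' summed exon lengths ran from 1206 to 7797 bases (median 3330). The 20 shorter members had a median difference of −0.52 and the 20 longer ones −0.13. The Spearman rho with length was 0.28 over the 40 members and 0.37 over the 13840 tested genes with a length, across genes, which are not independent. After each library's trend with length was removed, the members' median was −0.25, with Gnmt at −0.48, Hpd at −0.58 and Cbs at −0.78. Without KO GFP replicate 3 the median was −0.37, with 31 values lower and 9 higher and no call, and without KO GFP replicate 2 it was −0.20. It was −0.0705 after quantile normalization and −0.13 with equal library totals, where all genes stood at 0.11. With library quality weights limma called 22 of the 40 members, but also 33% of all genes. In the other comparisons the same weights called 5 members for MET/CAT in WT (18.9% of all genes), 9 in KO (11.8%) and 10 averaged (17.1%). They called 0 for KO against WT in MET/CAT (0.0144%), 1 averaged (1.15%) and 4 for the interaction (9.91%). That fit gave WT GFP replicate 1 a weight of 7.25 and KO GFP replicate 1 a weight of 6.06, and the others 0.240 to 1.31. The Kupffer cell and macrophage markers were lower in 13 of 13 cases (11 with an unadjusted p under 0.05, 0 called by limma, median −1.41). Values of 7 of 7 lymphocyte markers (median −1.11, 0 called) and 5 of 5 cholangiocyte markers (median −0.33, 0 called) were lower too. Other lists were mixed, with 0 called. Lower values were found for 4 of 9 hepatocyte markers (Trf lowest at −2.51, limma adjusted p = 0.107), 5 of 7 endothelial and 4 of 7 neutrophil markers. Stellate and fibroblast markers were lower in 4 of 8, and their sum was 5080 to 7160 in KO GFP and 4594 to 5073 in WT GFP. The 8 listed lymphocyte markers summed to 52.4 to 133 in KO GFP and 152 to 200.1 in WT GFP, with Cd3e at 0 in KO GFP replicate 3. The part of these cells in the members' values was not tested.

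**Figure D4:**
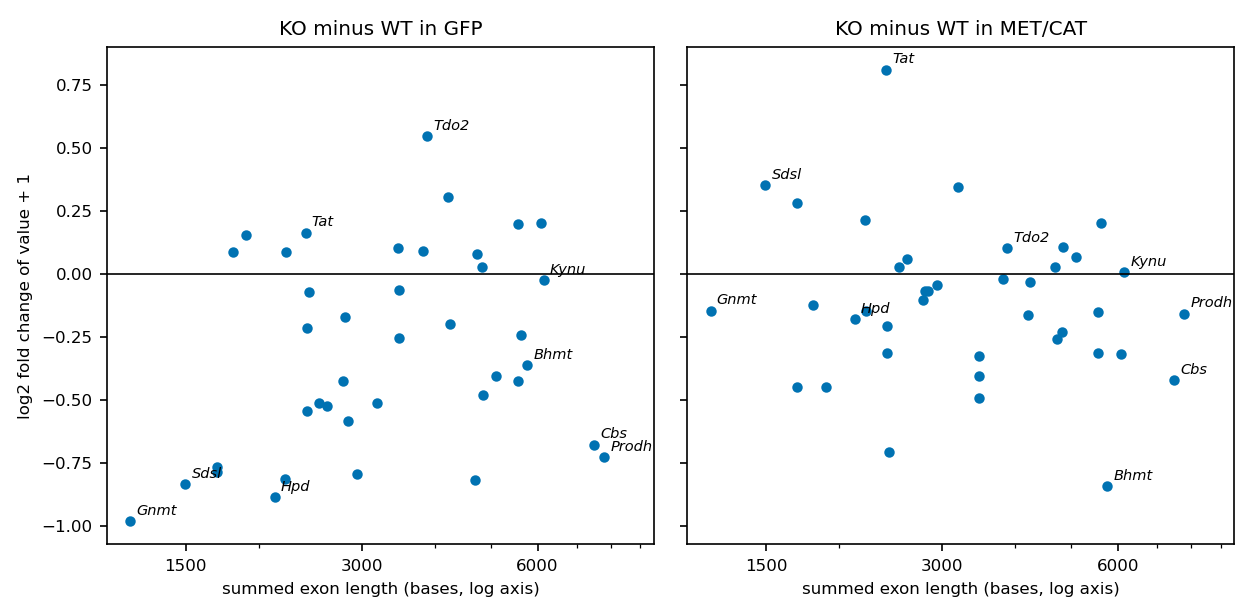
Log2 fold change of value + 1 in KO against WT (vertical axis) by summed exon length in bases (horizontal log axis) for the 40 members (points), in GFP livers (left) and MET/CAT livers (right). In GFP the short transcripts Gnmt and Sdsl are among the lowest, at −0.98 and −0.83, while the long transcripts Cbs and Prodh are also low, at −0.68 and −0.72.

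With the oncogenes present, the median difference of KO from WT was −0.13 beside −0.0019 over all genes, with 27 lower and 13 higher. Limma called no member (0.00721% of all genes), 2 had an unadjusted p under 0.05 (7.76%), edgeR called 0 (0.00721%) and DESeq2 0 (0.245%). KO MET/CAT lay below WT MET/CAT in all libraries for 6 members, Bckdha, Cbs, Uroc1, Amt, Bhmt and Mat1a, beside 7.01% of all genes, and none lay above, beside 6.82%. Without WT MET/CAT replicate 1, in which 18 members and the normalized total were at their highest, the median was −0.0070. The count with an unadjusted p under 0.05 was 6 without KO GFP replicate 3, beside 1499 of 13793 genes. It was 4 without KO MET/CAT replicate 3 (1130 of 13799) and 0 without WT MET/CAT replicate 1 (1528 of 13765). It was 1 without replicate 1 of WT GFP (930 of 13777) or of KO GFP (1008 of 13814). It was also 1 without KO GFP replicate 2 (1054 of 13796) or KO MET/CAT replicate 2 (737 of 13777). Values of 5 of 5 cholangiocyte markers were higher in KO here (median 0.62, 0 called), and their part was not tested.

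Bckdha, a subunit of the branched chain ketoacid dehydrogenase (ENSMUSG00000060376.7, chromosome 7, 25629946 to 25658981, minus strand), had values of 934, 992 and 971 in WT GFP, 1144, 1152 and 944 in KO GFP, 1299.8, 1166 and 1083 in WT MET/CAT, and 963, 724 and 929.9 in KO MET/CAT. Its KO MET/CAT libraries were all below the WT MET/CAT ones, and KO GFP reached above WT GFP in 2 of 3 libraries. The log2 fold change in MET/CAT was −0.45 (SE 0.17), limma adjusted p = 0.596. B3gnt8 on the other strand covers 61.7% of the exon bases of Bckdha. The strand setting and the handling of reads over shared bases are not given. How far these reads were kept, dropped or mixed in the value of Bckdha is therefore not known. Tat, tyrosine aminotransferase (ENSMUSG00000001670.13, chromosome 8, 109990437 to 109999803, plus strand), had values of 20477, 17494 and 24424 in WT GFP, 24165, 21959.6 and 23186 in KO GFP, 17002, 11888 and 40711 in WT MET/CAT, and 50300, 30079 and 29365 in KO MET/CAT. WT MET/CAT was scattered, from the lowest value of the 12 libraries (replicate 2) to the second highest (replicate 3), and overlapped KO MET/CAT. Its log2 fold change was 0.81 (SE 0.37), limma adjusted p = 0.618. For Cbs it was −0.42 (SE 0.20), limma adjusted p = 0.638. Bhmt averaged 36875 ± 7142 and 20927 ± 5774 (−0.84), and its values in WT GFP ran from 12243 to 38672.

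**Figure D5:**
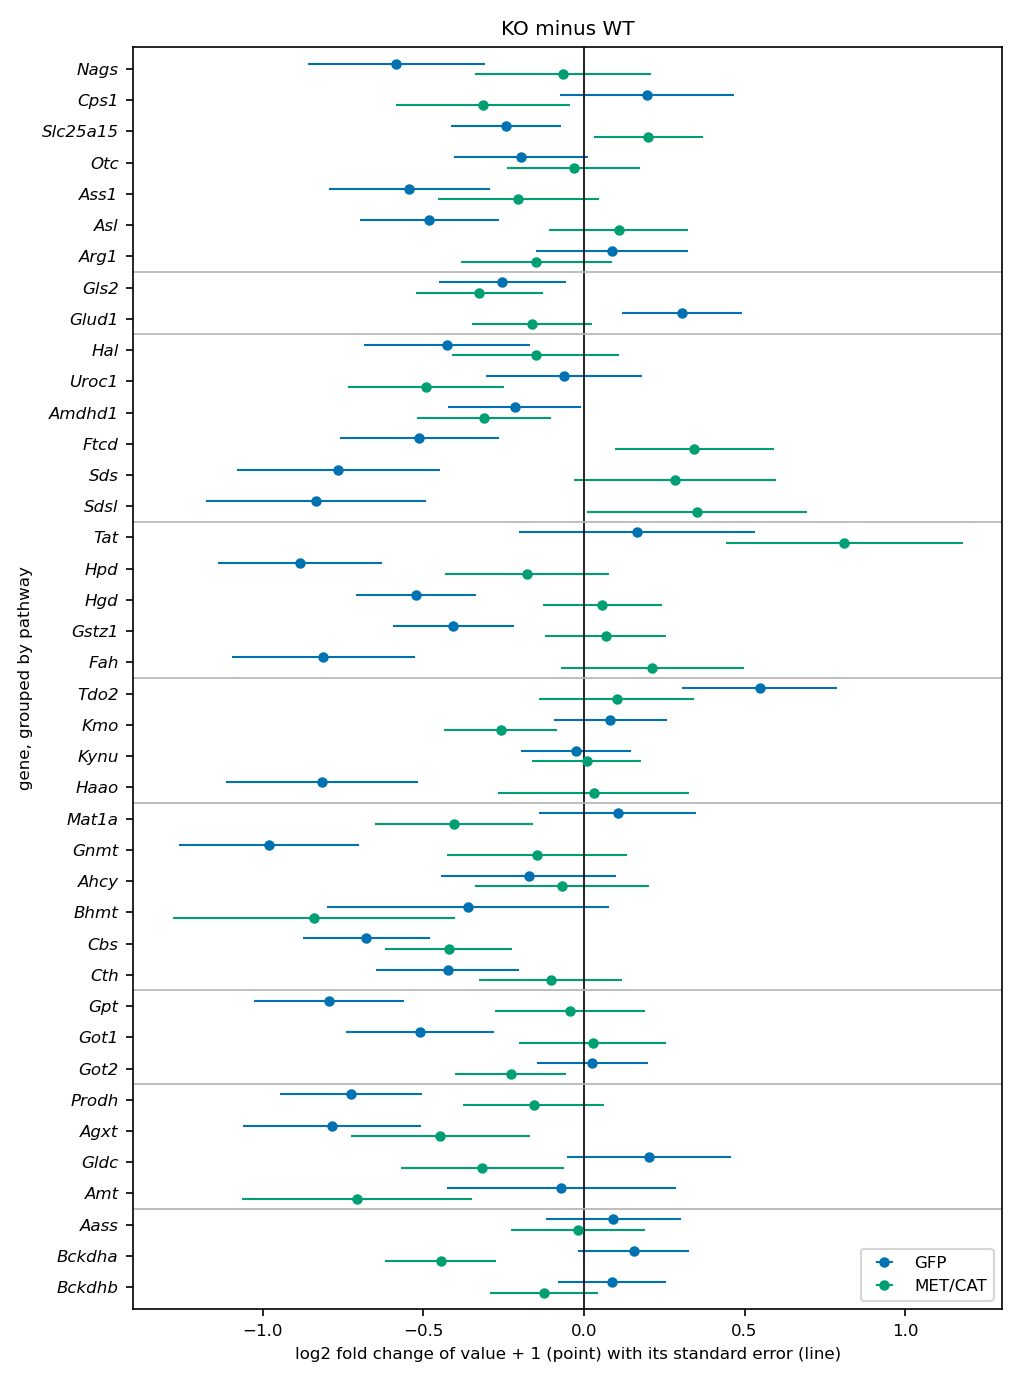
Log2 fold change of value + 1 in KO against WT (horizontal axis) for each member (rows, by pathway group), as points with standard errors, in GFP and in MET/CAT livers. Gnmt and Hpd lie at −0.98 and −0.88 in GFP and at −0.15 and −0.18 in MET/CAT, and Cbs is left of 0 in both.

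Averaged over the plasmids, 36 of 40 members had lower values in KO, with a median of −0.24 beside −0.05 over all genes. The exceptions were Tat (0.49), Tdo2 (0.32), Glud1 (0.07) and Aass (0.04). No member was called by limma (0.0144% of all genes), 6 had an unadjusted p under 0.05 (8.11%), edgeR called 0 (0.00721%) and DESeq2 0 (0.281%). No member separated all 6 KO from all 6 WT libraries, beside 0.123% of all genes upward and 0.26% downward. The smallest p-values belonged to Cbs (−0.55 (SE 0.14), limma adjusted p = 0.508), Agxt (−0.62 (SE 0.20), 0.546) and Hpd (−0.53 (SE 0.18), 0.548). Agxt (ENSMUSG00000026272.6, chromosome 1, 93135240 to 93145421, plus strand) had values of 14009, 15624 and 11737 in WT GFP, 7769.7, 9471 and 6832 in KO GFP, 15632, 13706 and 8059.7 in WT MET/CAT, and 7775, 6972 and 12565 in KO MET/CAT. KO GFP was below WT GFP throughout, while with MET/CAT the ranges overlapped. Without KO GFP replicate 3 the median was −0.18, with Cbs at −0.59, Agxt at −0.56 and Hpd at −0.49. The count with an unadjusted p under 0.05 was then 10, beside 1170 of 13793 genes. It was 11 without WT MET/CAT replicate 3, beside 1301 of 13756. With quantile normalization 30 members were lower in KO and with equal library totals 26. Equal totals moved the median of all genes to 0.07. Relative to all genes the members stood at −0.19 both there and as deposited, which rescaling whole libraries can hardly change. After quantile normalization they stood at −0.15 relative to all genes. The 13 Kupffer cell and macrophage markers were all lower by value (median −0.685, 0 called), and their part was not tested.

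The third question was whether the plasmid effect differed between genotypes, tested as an interaction, the KO difference minus the WT difference. No member was called by limma or edgeR, nor was any gene (0% in each), and DESeq2 called 0 members (1.12% of all genes). An unadjusted p under 0.05 in limma was reached by 7 members, beside 15.5% of all genes. The median was 0.27 beside 0.04 over all genes, and it was −0.0276 after quantile normalization. The 20 shorter members had a median of 0.53 and the 20 longer ones −0.09. The tyrosine genes were positive in 5 of 5 cases (median 0.65) and the lysine and branched chain genes negative in 3 of 3 (−0.21). Fah, the hydrolase that ends tyrosine breakdown (ENSMUSG00000030630.16, chromosome 7, 84585159 to 84606722, minus strand), had values of 23272, 28615 and 17718 in WT GFP, 15418, 16876 and 8395 in KO GFP, 22919, 15808 and 15016 in WT MET/CAT, and 18239, 23294 and 19934 in KO MET/CAT. KO GFP had the lowest mean, and its replicate 3 was the lowest library. Its interaction was 1.02 (SE 0.40), limma adjusted p = 0.28, and 0.71 without KO GFP replicate 3. For Bckdha it was −0.60 (SE 0.24), adjusted p = 0.283, and −0.70 without that library. For Sdsl it was 1.19 (SE 0.48), adjusted p = 0.283, and 0.87 without that library. Leaving out replicate 3 of WT MET/CAT gave a median of 0.13, and leaving out replicate 3 of KO MET/CAT gave 0.16. Without KO GFP replicate 3 it was 0.27. The count with an unadjusted p under 0.05 ranged from 1 to 14 when 1 library was left out. The count over all genes moved too. The members' count was 14 without WT MET/CAT replicate 1, beside 2927 of 13765 genes. It was 4 without replicate 3 of WT MET/CAT (1591 of 13756) or of KO MET/CAT (1954 of 13799). It was 3 without WT GFP replicate 1 (1625 of 13777). Leaving out WT GFP replicate 2 (1338 of 13777) or KO GFP replicate 3 (1368 of 13793) gave 2. Leaving out replicate 2 of WT MET/CAT (1474 of 13747) or of KO MET/CAT (1395 of 13777) gave 1. Of the Kupffer cell and macrophage markers 12 of 13 were positive (median 1.498, 0 called), as were 6 of 7 lymphocyte and 5 of 5 cholangiocyte markers (0 called), and their part was not tested.

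Other genes of nitrogen handling included calls with lower adjusted p than any member. Of 14 listed transporters and enzymes, 11 were tested, and 2 rose with MET/CAT averaged over genotypes. Glul, the glutamine synthetase of pericentral hepatocytes, had values of 22828, 16514 and 17994 in WT GFP, 21664, 19194 and 17955 in KO GFP, 59596, 36972 and 63360.1 in WT MET/CAT, and 67363, 85906 and 38359.7 in KO MET/CAT. All MET/CAT libraries lay above all GFP libraries, with a log2 fold change of 1.54 (SE 0.21, limma adjusted p = 0.00179). In KO alone it was 1.63 (adjusted p = 0.0222) and in WT 1.45 (adjusted p = 0.0530). The call in KO was lost in 5 of 12 fits without 1 library, those without any 1 of the KO GFP libraries or without KO MET/CAT replicate 1 or 2 (adjusted p up to 0.0839), and was also lost when only the compared libraries were fitted (0.0651). Slc1a2, a glutamate transporter, had values of 2056, 1890.2 and 1363 in WT GFP, 1890.5, 1468 and 1823 in KO GFP, 3950.2, 2480.1 and 4308 in WT MET/CAT, and 5905, 4789 and 2312 in KO MET/CAT. Its libraries also separated, with a log2 fold change of 1.11 (SE 0.22, limma adjusted p = 0.0144). Both calls held without each library in turn in the averaged comparison. Of 48 tested further enzymes of amino acid catabolism, 1 rose, Acmsd, which acts after Haao in tryptophan breakdown, with values of 246, 269.7 and 333 in WT GFP, 291, 266 and 254 in KO GFP, 699, 408 and 541 in WT MET/CAT, and 384, 618 and 312 in KO MET/CAT. Its log2 fold change was 0.78 (SE 0.19, limma adjusted p = 0.0345), and the call held in 3 of 12 fits without 1 library. Limma called no gene of these lists lower. For the averaged effect edgeR called Aqp9, an aquaglyceroporin, lower and Oat, ornithine aminotransferase, higher. DESeq2 made the same 2 calls and also called Slc38a3 and Hoga1 lower. For KO against WT, DESeq2 called Bcat2 lower in GFP and averaged, and Slc38a2 higher averaged.

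Some members share exon bases with a gene on the opposite strand. Besides Bckdha, these are Sds (21.3% with Plbd2 and 8.32% with Gm15690), Nags (15.6% with Gm11586), Bhmt, Gls2, Got2 and Gstz1. For Bhmt, Gls2, Got2 and Gstz1 no single overlapping gene covers more than 9.14%. Gstz1 shares bases with both Pomt2 (9.14%) and Gm6566 (3.07%). How reads over these bases were counted is not given, so the effect on the values of Sds, Nags and the others is not known.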

How the data were processed

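RNA sequencing values of 12 whole mouse liver libraries in 4 groups of 3 were used. The aligner was HISAT2 2.0.4, reads were counted with HTSeq 0.11.2 and the build was GRCm38, per the submitters' processing notes. Kit, strand setting and normalization: not given in the sources used here. The deposited signal is a gene count divided by 1 factor per library, as read from the values: whole reads were recovered for 100% of values within 0.01 reads, though for replicate 1 of both WT groups a step this close to 1 shows little. limma 3.58.1 (R 4.3.3) was fitted with a mean-variance trend to log2(value + 1), as 4 group means over 12 libraries, for the 13871 genes reaching 10 in 3 or more libraries. The scale understates changes of low genes. Adjusted p are Benjamini-Hochberg over all tested genes, and 7 contrasts were taken. Every member is named. Values in every library are given for called members and for the 3 smallest p in each contrast, and the genes limma called in other lists are named. The members and lists were chosen with earlier results of these data known. Alternatives were pseudocounts of 0.5 and 5, no filter or a minimum of 50, library quality weights, equal library totals, quantile normalization, edgeR 4.0.16 and DESeq2 1.42.0 on recovered reads (619 and 1139 genes called for the averaged plasmid effect against 527), a replicate block, the compared libraries alone, removal of a loess trend with exon length, and each library left out. Gene models came from GENCODE M21 and promoter windows from RefSeq. Scripts were tested on simulated data. Figures used Python 3.11.15 and matplotlib 3.10.9.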

Additional observations from a re-analysis of the deposited data

How the results depend on the processing

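Single genes were followed only if called or among the 3 smallest p of a contrast, plus Sirt2, a choice that favours a stable sign. Of their alternatives 587 kept their side of the threshold, 23 passed it and 49 lost it, and none changed sign. Over all 40 members signs did change. The averaged plasmid effect had 27 higher and 13 lower, 20 and 20 after quantile normalization, and 19 and 21 with equal totals. For KO against WT averaged, 4 higher and 36 lower became 10 and 30 after quantile normalization, and 14 and 26 with equal totals. Library quality weights also raised the share of all genes called to as much as 33%. They called 5 members in WT, 9 in KO and 10 averaged for MET/CAT against GFP. For KO against WT they called 22 in GFP and 1 averaged, and for the interaction 4. DESeq2 gave 1 in WT, 6 in KO and 2 for KO against WT in GFP. For the averaged plasmid effect edgeR gave 1, no filter 1, quantile normalization 0 and equal library totals 0, and leaving out 1 library gave 0 to 3. In KO livers the minimum of 50 gave 1, length trend removal 2, and leaving out 1 library 0 to 1. The labels do not say whether replicate numbers pair the libraries. Correlations of deviations from the group means were −0.195 to 0.280 in 18 same-numbered pairs and −0.289 to 0.189 in 36 others. Their medians were −0.0057 and −0.013. For WT GFP with KO GFP they were −0.023, 0.280 and 0.264 in replicates 1, 2 and 3. Overlapping ranges cannot decide whether some libraries were paired. With the replicate block 1 member was called in WT, 1 in KO and 4 averaged for the plasmids, beside 64, 187 and 532 of 13871 genes. The block called 0 members for KO against WT in GFP and for the interaction, beside 7 and 2 genes.

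The members' median log2 fold change with equal library totals was −0.0314 in WT, 0.0853 in KO and −0.0199 averaged for the plasmids, −0.13 in GFP and −0.12 averaged for KO against WT, and 0.15 for the interaction. After quantile normalization it was 0.0798 in KO, −0.0043 averaged, −0.0705 for KO against WT in GFP and −0.0276 for the interaction. Length trend removal gave −0.13 for KO against WT averaged and 0.14 for the interaction, and library quality weights 0.42 for the interaction. Leaving out 1 library gave −0.37 to −0.20 for KO against WT in GFP, −0.18 to −0.0070 in MET/CAT, and 0.13 to 0.38 for the interaction. Equal totals rescale whole libraries, so members minus all genes could hardly move and its stability shows nothing. For the plasmids it was 0.0907 in WT, 0.26 in KO and 0.12 averaged, against 0.0919, 0.26 and 0.13 as deposited. In both it was −0.24 for KO against WT in GFP, −0.19 averaged and 0.22 for the interaction. Quantile normalization, which can move it, gave 0.0949 in WT, 0.11 in KO and 0.0221 averaged for the plasmids. It gave −0.0855 for KO against WT in GFP, −0.14 in MET/CAT, −0.15 averaged and −0.0053 for the interaction. The cause of the shifts under the other alternatives was not tested.

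Counts over all genes also moved by more than 1.5 times: over all alternatives 3 to 2615 genes were called in WT, 48 to 1635 in KO, 276 to 2377 averaged, 0 to 4575 for KO against WT in GFP, 0 to 34 in MET/CAT, 1 to 160 averaged and 0 to 1374 for the interaction. With 3 libraries a group, precision is set by the spread between libraries and not by depth, since each member had a value of at least 270.3 in every library.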

Other observations

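Among 14 regulators of these enzymes (transcription factors of the hepatocyte and hormone receptors), none was called by limma in any comparison, with 3, 7 and 5 at an unadjusted p under 0.05 for MET/CAT against GFP in WT, in KO and averaged, beside 14.8%, 20.3% and 17.9% of all genes. For KO against WT these were 1 in GFP (15.5%), 2 in MET/CAT (7.76%) and 2 averaged (8.11%), and for the interaction 2 (15.5%). edgeR called none. For MET/CAT against GFP, DESeq2 called Hnf4a higher and Cebpa lower in WT, Onecut1 and Ppara lower in KO, and Hnf4a higher and Cebpa and Onecut1 lower averaged. Their median log2 fold change in KO MET/CAT against KO GFP was −0.47, with 10 of 14 values lower. Among 8 genes of amino acid synthesis, none was called by limma, edgeR or DESeq2 in any comparison, and at most 2 had an unadjusted p under 0.05.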
